A study of Mus musculus with 8 samples.

Results

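The genes described here are 42 mouse genes of DNA replication and S phase, chosen by name: every non-control probe of the array whose gene name was one of the 42 was taken, and the brightest kept probe stood for the gene. They belong to 36997 gene names on the array, and 41 of them were among the 21519 genes that passed the filter on dim probes and were tested. The 42nd gene, Ccne2, has 1 probe, which was well above background on 1 array only, so it was not tested. The other 41 were well above background on all 8 arrays. The choice of genes used no measured value of these arrays in its rule, but it was made with earlier results of these data known.

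The study profiled CD4+ T cells of C57BL/6 mice on single-colour Agilent arrays in 4 groups of 2 arrays each. Every mouse was given TCR transgenic CD4+ T cells specific for ovalbumin (OVA) and was immunised with dendritic cells loaded with OVA peptide; CD4+ T cells were isolated 4 days later, and 0.1 µg of RNA was labelled. Hosts were either free of tumour or bore MCA205-OVA, a fibrosarcoma line made to express OVA, and either received a control antibody or an antibody that blocks the receptor of the cytokine interleukin 6 (anti-IL-6R). The groups are called tumour-free control (replicates 1 and 2), tumour-bearing control (replicates 3 and 4), tumour-free anti-IL-6R (the arrays of replicates 5 and 6) and tumour-bearing anti-IL-6R (those of replicates 7 and 8). The isolated cells were CD4+ T cells as a whole, so transferred and host cells are pooled. Each condition was run in 2 independent experiments, per the series' design text, but the labels do not say which arrays share an experiment, how many mice gave a sample, or how pure the cells were, and the p-values below therefore measure the spread between these samples only. All 8 arrays were on 1 slide, with the control antibody and anti-IL-6R in separate columns and the hosts in different rows, so slide position and group cannot be told apart. In bulk RNA, fewer cells of a type and less RNA per cell cannot be told apart either.

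DNA replication starts at origins bound by the origin recognition complex, which with CDC6 and CDT1 loads the MCM2-7 ring, the core of the replicative helicase. Kinases then recruit CDC45 and the GINS complex to activate it, primase and the polymerases copy the strands on the sliding clamp PCNA, and nucleotide-making enzymes and histone chaperones supply the material for new chromatin. Many of these genes are targets of E2F transcription factors, which are released from the retinoblastoma protein when a cell such as an antigen-stimulated T cell enters the cell cycle.

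Because E2F factors are known regulators of this group, the stretch just before the annotated start site is shown for 4 members, 3 that will be seen to differ between groups and 1, Gins3, that did not pass any test although it holds the same motif. The sequences are from RefSeq on GRCm38.p6, written 5′ to 3′ on the strand of the gene. Capitals mark matches to the E2F motif, taken as the letters TTTCCCGC, TTTCGCGC, TTTGCCGC or TTTGGCGC on either strand. The stretches are chr4:108579334-108579453 on the plus strand for Orc1, chr1:128359706-128359825 on the minus strand for Mcm6, chr11:98908003-98908150 on the plus strand for Cdc6 and chr8:95633439-95633558 on the plus strand for Gins3.
Orc1: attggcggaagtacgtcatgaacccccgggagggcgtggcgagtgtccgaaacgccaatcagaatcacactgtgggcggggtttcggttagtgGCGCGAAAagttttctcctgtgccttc
Mcm6: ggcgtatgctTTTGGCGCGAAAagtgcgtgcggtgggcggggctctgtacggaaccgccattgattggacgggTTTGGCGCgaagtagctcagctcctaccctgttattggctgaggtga
Cdc6: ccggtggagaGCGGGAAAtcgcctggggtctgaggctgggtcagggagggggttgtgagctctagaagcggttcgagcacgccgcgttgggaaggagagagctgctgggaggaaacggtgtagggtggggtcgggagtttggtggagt
Gins3: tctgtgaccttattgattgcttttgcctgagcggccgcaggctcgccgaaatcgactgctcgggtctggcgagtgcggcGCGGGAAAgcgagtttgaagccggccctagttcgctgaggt
The Mcm6 stretch holds 3 matches, of which the first and the second overlap on opposite strands, and the others hold 1 each. A RefSeq window of 300 bases (250 before and 50 after the start) was found for 34 of the 42 members. The E2F motif was present in 14 of the 34 members, or 41.2%, against 2.6% of the 27025 genes with a window. The CCAAT box, a promoter element searched as CCAAT on either strand, was present in 20 of the 34 members, or 58.8%, against 41.1% of all genes. A match describes letters in the window and is not a binding site measured here.

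The level of a gene is given as the log2 of its processed signal minus the 75th percentile of its array, and a difference between groups is on the same log2 scale. In tumour-bearing control mice 11 of the 41 measured members rose and none fell against tumour-free control mice (limma, Benjamini-Hochberg adjusted p under 0.05 over all genes; 4.26% of all genes tested rose and 1.97% fell). Of the 41 members, 39 had a difference above 0, as did 54.9% of all genes. The median was 0.32 against 0.03 over all genes. An unadjusted limma p under 0.05 was found for 27 members and for 24.6% of all genes. Arrays of the 2 groups did not overlap for 32 members, each time higher with tumour (30.0% of all genes were so higher). The count of 11 fell to 2, 1, 1 and 4 when replicate 1, 2, 3 or 4 was left out, to 7 with quantile normalization, and to 4 without a trend in the variance, without the filter on dim probes or with array weights. A fit without 1 array leaves its group with a lone array, which is assumed to vary like the arrays of the other groups; this holds for every such fit given here.

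In tumour-bearing mice, 23 of the 41 members fell and none rose with anti-IL-6R against control antibody (limma; 3.82% of all genes tested fell and 2.04% rose). The differences of 40 members were below 0, while 42.2% of all genes were above 0. The median was -0.42 against -0.05 over all genes. An unadjusted limma p under 0.05 was found for 32 members and for 29.3% of all genes. Arrays did not overlap for 37 members, all lower with anti-IL-6R (36.3% of all genes were so lower). Leaving out replicate 1 or 2 left 14 calls, leaving out replicate 4 left 4, and leaving out replicate 3 or 8 left 0; without a trend in the variance 2 calls were left, and without the filter on dim probes 0. The 2 comparisons share the tumour-bearing control arrays, replicates 3 and 4, so a high value there raises the first difference and lowers the second, and their values are set side by side without a measure of agreement.

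**Figure D1:**
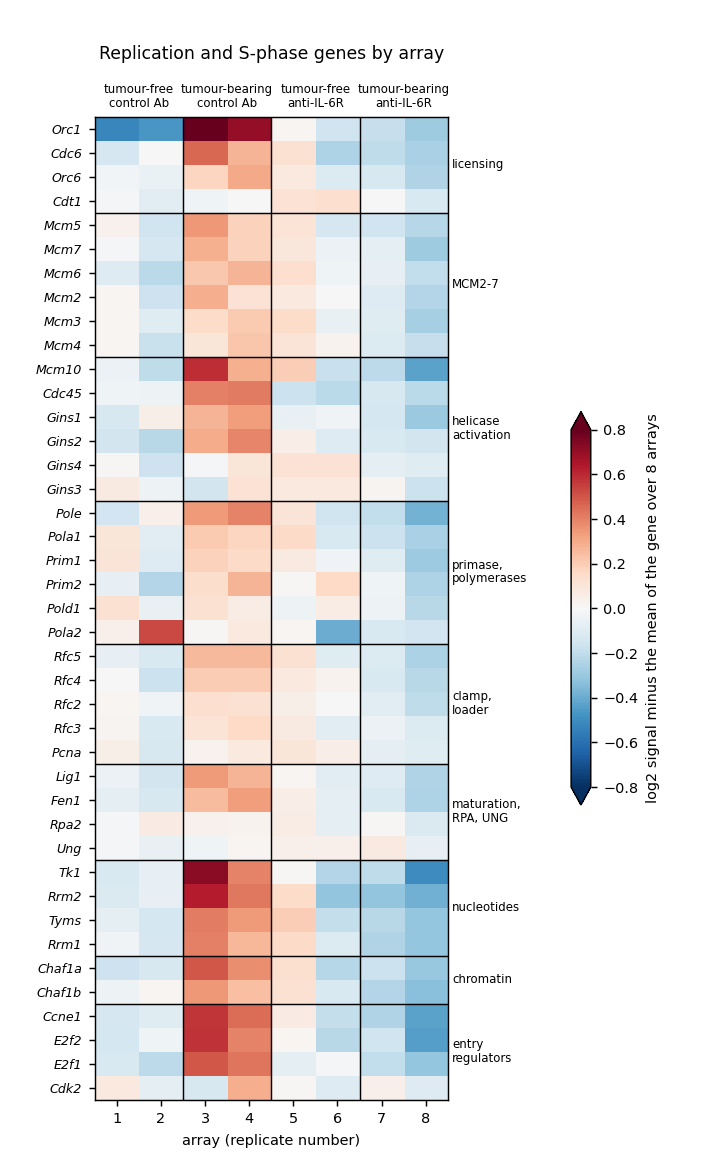
Heat map of the 41 measured replication and S-phase genes (rows, grouped by role) on the 8 arrays (columns, grouped by host and antibody); colour is the log2 scaled signal minus the mean of the gene over the 8 arrays, and values past 0.8 are drawn at the end of the scale. Replicates 3 and 4, the tumour-bearing control arrays, are red in most rows, with medians over the members of 0.26 and 0.27, and replicate 8 is the bluest column, with a median of -0.24.

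By array, the median deviation of the members from their own 8-array means was -0.03 and -0.10 in the tumour-free control group, 0.26 and 0.27 in the tumour-bearing control group, 0.08 and -0.09 in the tumour-free anti-IL-6R group and -0.12 and -0.24 in the tumour-bearing anti-IL-6R group. Over all genes the same medians lay between -0.05 and 0.05. Both tumour-bearing control arrays stood above the other 6 arrays for 30 of the 41 members (17.2% of all genes). The 11 members without this pattern were Cdk2, Cdt1, Gins3, Gins4, Mcm4, Pcna, Pola2, Pold1, Prim2, Rpa2 and Ung. The tumour-bearing control group had the highest mean for 35 members, the tumour-bearing anti-IL-6R group the lowest for 33. Both counts were taken over the members only, without the share over all genes beside them.

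**Figure D2:**
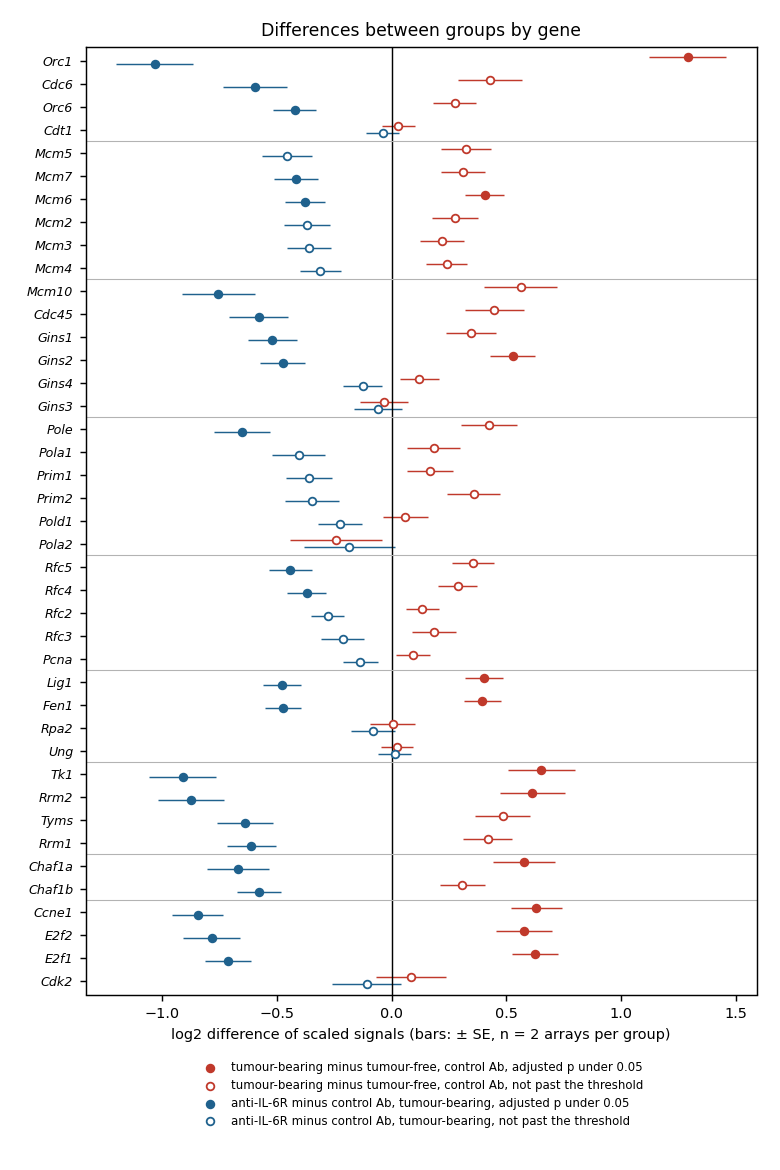
Log2 differences between groups for each of the 41 members, ordered by role; red is tumour-bearing minus tumour-free under control antibody, blue is anti-IL-6R minus control antibody in tumour-bearing mice, bars are ± SE from the 4-group fit with 2 arrays per group, and filled points passed an adjusted p of 0.05. Orc1 has the largest differences, 1.29 and -1.03, while Cdt1, Gins3, Rpa2 and Ung lie within 0.1 of 0 on both.

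Orc1, which encodes the large subunit of the origin recognition complex, had the largest difference of all members in both comparisons. Orc1 read -2.94 and -2.88 on the tumour-free control arrays, -1.52 and -1.72 on the tumour-bearing control arrays, -2.40 and -2.58 with anti-IL-6R in tumour-free mice and -2.60 and -2.70 with anti-IL-6R in tumour-bearing mice. Both tumour-bearing control values exceeded those of the other 6 arrays, the tumour-free control pair was lowest, and no 2 groups overlapped. Orc1 was 2.45-fold higher with tumour (log2 1.29 ± 0.17, limma adjusted p = 0.006) and 2.05-fold lower with anti-IL-6R in tumour-bearing mice (log2 -1.03 ± 0.17 (limma adjusted p = 0.025)). Of the 11 members that rose with tumour, only Orc1 passed in each of the 8 fits that left out 1 array. The size of the Orc1 differences varied, however, over the alternative settings, with the fits that left out 1 array included. They ranged from 0.73 to 1.39 with tumour and from -1.14 to -0.71 with anti-IL-6R in tumour-bearing mice. The probes of Orc1 differ as well. A dimmer probe, well above background on 5 arrays, gave 0.11 and -0.44 in the 2 comparisons. Another was well above background on the 2 tumour-bearing control arrays only, so its differences have no exact size and are not given.

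The other licensing genes had smaller differences. Cdc6, whose product joins the origin recognition complex to load the helicase, fell with anti-IL-6R in tumour-bearing mice by 0.60 on the log2 scale (limma adjusted p = 0.048) and differed by 0.43 with tumour (adjusted p = 0.11); its second probe gave 0.74 and -1.06. Orc6, the smallest subunit of the complex, fell by 0.42 (adjusted p = 0.043), with a tumour difference of 0.28 (adjusted p = 0.12). Cdt1, the loading factor that geminin inhibits, showed 0.03 ± 0.07 with tumour and -0.04 ± 0.07 with anti-IL-6R, and its 8 values lay between 3.62 and 3.87.

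All 6 subunits of the MCM2-7 ring had values above 0 with tumour, from 0.22 for Mcm3 to 0.41 for Mcm6, and below 0 with anti-IL-6R in tumour-bearing mice, from -0.46 for Mcm5 to -0.31 for Mcm4. Mcm6 rose with tumour and fell with anti-IL-6R, Mcm7 fell with anti-IL-6R, and the remaining subunits passed neither test. Mcm6 read 5.03 and 4.92 on the tumour-free control arrays, 5.35 and 5.41 on the tumour-bearing control arrays, 5.27 and 5.10 with anti-IL-6R in tumour-free mice and 5.07 and 4.94 with anti-IL-6R in tumour-bearing mice. The tumour-bearing control pair was the highest, just above the higher of the tumour-free anti-IL-6R arrays. The Mcm6 differences were 0.41 ± 0.09 (limma adjusted p = 0.035) with tumour and -0.38 ± 0.09 (limma adjusted p = 0.045) with anti-IL-6R. Mcm7 differed by -0.42 with anti-IL-6R (adjusted p = 0.047), Mcm5 by -0.46 (adjusted p = 0.052), Mcm3 by -0.36 (adjusted p = 0.059) and Mcm2 by -0.37 (adjusted p = 0.062), so the subunits that passed and those that did not are close in size. The 4 probes of Mcm3 gave tumour differences between 0.22 and 0.27.

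Of the 6 genes that turn the loaded ring into an active helicase, 1 rose with tumour and 4 fell with anti-IL-6R in tumour-bearing mice. GINS is a ring of 4 subunits. For the subunit Gins2 the arrays separated: Gins2 read 0.02 and -0.05 on the tumour-free control arrays, 0.46 and 0.56 on the tumour-bearing control arrays, 0.22 and 0.06 with anti-IL-6R in tumour-free mice and 0.05 and 0.02 with anti-IL-6R in tumour-bearing mice. Here the tumour-bearing control pair was highest and the tumour-free control pair lowest. Gins2 differed by 0.53 ± 0.10 (limma adjusted p = 0.023) with tumour and by -0.48 ± 0.10 (limma adjusted p = 0.038) with anti-IL-6R. Its partner Gins1 fell by 0.52 with anti-IL-6R (adjusted p = 0.039), whereas Gins4 gave 0.12 and -0.13 and Gins3 -0.03 and -0.06 in the 2 comparisons, none past the threshold. Mcm10, which helps the assembled helicase to start, fell by 0.76 (adjusted p = 0.04) and Cdc45, the helicase cofactor, by 0.58 (adjusted p = 0.042). A second Cdc45 probe gave only -0.08 with anti-IL-6R.

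Of the 6 genes of primase and the replicative polymerases, 0 rose with tumour and 1 fell with anti-IL-6R in tumour-bearing mice. The gene that fell was Pole, the catalytic subunit of the leading-strand polymerase epsilon, at -0.65 ± 0.12 (limma adjusted p = 0.028), with a tumour difference of 0.42 (adjusted p = 0.079). Pola1, the catalytic subunit of polymerase alpha, differed by -0.41 (adjusted p = 0.068), the primase subunit Prim1 by -0.36 (adjusted p = 0.065) and Pold1, of the lagging-strand polymerase delta, by -0.23 (adjusted p = 0.17). Prim2, the other primase subunit, gave 0.36 with tumour and -0.35 with anti-IL-6R on its brightest probe but -0.54 and 0.73 on its second, so its direction depends on the probe. Pola2, the second subunit of polymerase alpha, gave -0.24 ± 0.20 with tumour. Its tumour-free control arrays read -1.53 and -1.04, so 1 array of the pair was high. The other kept probes of Pola2 gave -0.48 and -0.17 with tumour. With anti-IL-6R in tumour-bearing mice the brightest probe gave -0.18 and the others -0.19 and 0.23, so the direction there depends on the probe.

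Of the 5 genes of the clamp and its loader, 0 rose with tumour and 2 fell with anti-IL-6R in tumour-bearing mice. Pcna, the sliding clamp and a common mark of proliferating cells, gave 0.09 ± 0.08 with tumour and -0.14 ± 0.08 with anti-IL-6R (limma adjusted p = 0.51 and 0.27). Of the loader subunits, Rfc5 fell by 0.44 (adjusted p = 0.039) and Rfc4 by 0.37 (adjusted p = 0.045) with anti-IL-6R in tumour-bearing mice, while Rfc2 at -0.28 (adjusted p = 0.056) and Rfc3 at -0.21 (adjusted p = 0.18) did not pass. The 3 probes of Rfc4 gave -0.37, -0.41 and -0.48, but the other probes of Rfc5 gave -0.13 and -0.31.

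Fen1 and Lig1, which trim and join the Okazaki fragments of the lagging strand, both rose with tumour and fell with anti-IL-6R in tumour-bearing mice. Fen1 read 3.72 and 3.66 on the tumour-free control arrays, 4.04 and 4.12 on the tumour-bearing control arrays, 3.85 and 3.72 with anti-IL-6R in tumour-free mice and 3.67 and 3.55 with anti-IL-6R in tumour-bearing mice. Likewise, Lig1 read 3.08 and 2.98 on the tumour-free control arrays, 3.47 and 3.40 on the tumour-bearing control arrays, 3.14 and 3.04 with anti-IL-6R in tumour-free mice and 3.03 and 2.89 with anti-IL-6R in tumour-bearing mice. For both genes the tumour-bearing control pair was above every other array and the lowest single value was replicate 8, of the tumour-bearing anti-IL-6R group. Fen1 differed by 0.40 ± 0.08 (limma adjusted p = 0.03) with tumour and by -0.47 ± 0.08 (limma adjusted p = 0.026) with anti-IL-6R. The corresponding values of Lig1 were 0.40 ± 0.08 (limma adjusted p = 0.033) and -0.48 ± 0.08 (limma adjusted p = 0.027), and its second probe gave 0.43 and -0.70. Rpa2, of the single-strand binding complex, gave 0.00 and -0.08, and Ung, which removes uracil from DNA, 0.02 and 0.01; neither passed.

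All 4 enzymes of nucleotide supply fell with anti-IL-6R in tumour-bearing mice, with a median of -0.76, and 2 of them rose with tumour. For thymidine kinase 1, Tk1 read 1.40 and 1.45 on the tumour-free control arrays, 2.24 and 1.92 on the tumour-bearing control arrays, 1.53 and 1.29 with anti-IL-6R in tumour-free mice and 1.32 and 1.02 with anti-IL-6R in tumour-bearing mice. For the small subunit of ribonucleotide reductase, Rrm2 read 2.95 and 2.99 on the tumour-free control arrays, 3.69 and 3.48 on the tumour-bearing control arrays, 3.21 and 2.74 with anti-IL-6R in tumour-free mice and 2.74 and 2.68 with anti-IL-6R in tumour-bearing mice. For thymidylate synthase, Tyms read 2.36 and 2.30 on the tumour-free control arrays, 2.85 and 2.78 on the tumour-bearing control arrays, 2.64 and 2.25 with anti-IL-6R in tumour-free mice and 2.22 and 2.13 with anti-IL-6R in tumour-bearing mice. In all of these the tumour-bearing control pair was above the other 6 arrays and the tumour-bearing anti-IL-6R pair was below the tumour-free control pair. With tumour, Tk1 differed by 0.65 ± 0.15 (limma adjusted p = 0.04), Rrm2 by 0.61 ± 0.14 (limma adjusted p = 0.046) and Tyms by 0.48 ± 0.12 (limma adjusted p = 0.056), so Tyms did not pass. With anti-IL-6R, Tk1 fell 1.88-fold, Rrm2 1.83-fold and Tyms 1.56-fold (adjusted p = 0.025, 0.025 and 0.03). Rrm1, the large subunit of ribonucleotide reductase, fell by 0.61 (adjusted p = 0.026) and had a tumour difference of 0.42 (adjusted p = 0.056). The 3 kept probes of Tk1 gave -0.91, -0.90 and -0.81 with anti-IL-6R and those of Tyms -0.64, -0.67 and -0.54.

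Both large subunits of chromatin assembly factor 1, which places histones on new DNA, fell with anti-IL-6R in tumour-bearing mice. Chaf1a read -0.37 and -0.33 on the tumour-free control arrays, 0.29 and 0.17 on the tumour-bearing control arrays, -0.07 and -0.43 with anti-IL-6R in tumour-free mice and -0.37 and -0.51 with anti-IL-6R in tumour-bearing mice. The tumour-bearing control pair was the highest and was positive, while every other array was negative. Chaf1a differed by 0.58 ± 0.14 (limma adjusted p = 0.046) with tumour and by -0.67 ± 0.14 (limma adjusted p = 0.035) with anti-IL-6R. Chaf1b fell by 0.58 (adjusted p = 0.026), with a tumour difference of 0.31 (adjusted p = 0.1).

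Of the genes that govern entry into S phase, 3 of the 4 measured both rose with tumour and fell with anti-IL-6R in tumour-bearing mice. E2f1 read -0.36 and -0.45 on the tumour-free control arrays, 0.26 and 0.19 on the tumour-bearing control arrays, -0.31 and -0.26 with anti-IL-6R in tumour-free mice and -0.43 and -0.55 with anti-IL-6R in tumour-bearing mice. E2f2 read 3.62 and 3.72 on the tumour-free control arrays, 4.34 and 4.15 on the tumour-bearing control arrays, 3.77 and 3.53 with anti-IL-6R in tumour-free mice and 3.60 and 3.32 with anti-IL-6R in tumour-bearing mice. For cyclin E1, Ccne1 read 1.52 and 1.56 on the tumour-free control arrays, 2.23 and 2.11 on the tumour-bearing control arrays, 1.73 and 1.47 with anti-IL-6R in tumour-free mice and 1.42 and 1.23 with anti-IL-6R in tumour-bearing mice. E2f1 and E2f2 encode activating E2F factors and Ccne1 the cyclin that partners CDK2. The tumour-bearing control pair was above all other arrays for each, and replicate 8 was the lowest. With tumour, E2f1 differed by 0.63 ± 0.10 (limma adjusted p = 0.013), E2f2 by 0.58 ± 0.12 (limma adjusted p = 0.035) and Ccne1 by 0.63 ± 0.11 (limma adjusted p = 0.019). With anti-IL-6R, the falls were 1.64-fold for E2f1, 1.72-fold for E2f2 and 1.8-fold for Ccne1 (adjusted p = 0.024, 0.025 and 0.024). The kinase gene Cdk2 gave 0.08 ± 0.15 and -0.11 ± 0.15 and its 2 tumour-bearing control arrays read -0.55 and -0.13, the lowest and the highest of the 8.

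**Figure D3:**
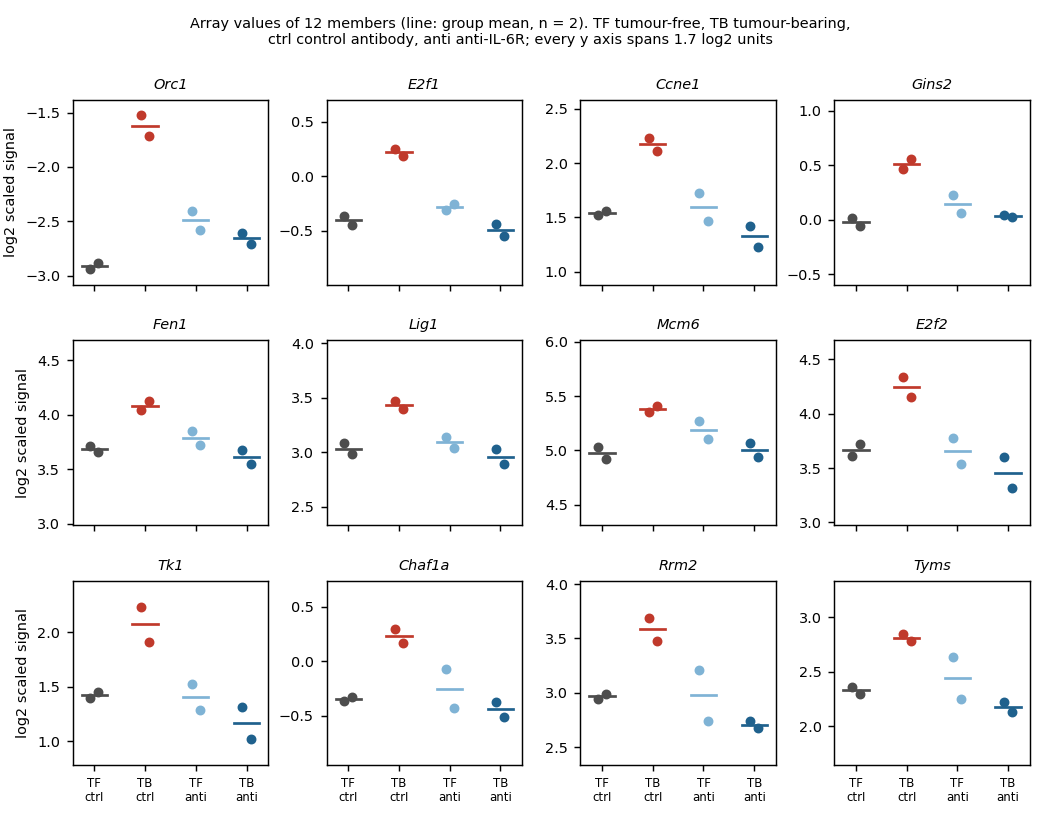
Log2 scaled signal on every array for 12 members, those past the threshold in any comparison with the smallest unadjusted p in the tumour comparison; points are arrays, lines are group means of 2 arrays, TF and TB are tumour-free and tumour-bearing, and ctrl and anti are control antibody and anti-IL-6R. In each panel both tumour-bearing control points lie above the other 6, by the widest gap for Orc1, and the rank of the other groups varies between genes.

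Members with and without an E2F motif were among those that fell. Of the 14 members with an E2F motif in their window, 6 fell with anti-IL-6R in tumour-bearing mice, with a median difference of -0.39. Of the 20 without it, 14 fell, with a median of -0.52. Orc1 at -1.03 and Gins3 at -0.06 both hold the motif. These are counts without a test. Lack of a match means only that none of the letter strings of the motif lay in the 300-base window.

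In tumour-free mice no member passed for anti-IL-6R against control antibody (limma, where 0.0186% of all genes tested passed). An unadjusted limma p under 0.05 was found for 5 members and for 7.92% of all genes, and the smallest adjusted p of a member was 0.62. The differences ranged from -0.48 for Pola2 to 0.42 for Orc1, with a median of 0.06 against 0.03 over all genes. Arrays did not overlap for 13 members that were higher (24.9% of all genes) and 2 that were lower (15.4%). Between tumour-bearing and tumour-free mice that both received anti-IL-6R, no member passed either (0.307% of all genes did). There 9 members had an unadjusted limma p under 0.05, as did 7.97% of all genes, and the smallest adjusted p of a member was 0.54. In that comparison 38 of the 41 differences were below 0, while 38.3% of all genes were above 0. The median was -0.19 against -0.06 over all genes. The largest difference was -0.33 for Mcm10, followed among the nucleotide enzymes by Rrm1 at -0.30. Arrays did not overlap for 31 members, all lower in tumour-bearing mice (34.4% of all genes).

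The effect of anti-IL-6R in tumour-bearing mice minus that in tumour-free mice was tested as an interaction. It passed for no member (limma; 0.0418% of all genes passed), with the smallest adjusted p at 0.074; an unadjusted p under 0.05 was found for 33 of the 41 members and for 25.1% of all genes. The difference between the effects was below 0 for 40 members, while 39.1% of all genes were above 0. The median was -0.51 against -0.09 over all genes. The smallest adjusted p, 0.074, was shared by Orc1 at -1.46 ± 0.24, Ccne1 at -0.90 ± 0.16 and E2f1 at -0.83 ± 0.14. Leaving out replicate 6 gave 6 members past the threshold and leaving out replicate 7 gave 4, in fits where 1 of the 4 groups was a lone array.

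A further 67 genes of replication and S phase, all measured, were chosen by function, but with earlier results of these data known. Of these, 10 rose and 1 fell with tumour, with a median of 0.17 (4.26% of all genes tested rose and 1.97% fell). The genes with the smallest p were Cdkn2c, an inhibitor of the G1 kinases CDK4 and CDK6, at 0.94 (limma adjusted p = 0.0033), E2f7, an E2F repressor, at 1.16 (adjusted p = 0.0085), Cdk6 at 0.60 (adjusted p = 0.014), the E2F partner Tfdp2 at 0.63 (adjusted p = 0.02), the deoxycytidine kinase Dck at 0.50 (adjusted p = 0.02) and the CDT1 inhibitor geminin, Gmnn, at 0.46 (adjusted p = 0.022). The gene that fell was Slbp, which binds the stem-loop of histone messages, at -0.79 (adjusted p = 0.022). With anti-IL-6R in tumour-bearing mice 18 fell and none rose, with a median of -0.24 (3.82% of all genes tested fell and 2.04% rose). Those that fell included the histone chaperone gene Asf1b at -0.79, Cdkn2c at -0.66 and Gmnn at -0.55 (limma adjusted p = 0.024 each). The S-phase cyclin gene Ccna2 at -0.89 and the nucleotide-cleansing Dctpp1 at -0.57 fell as well (adjusted p = 0.025 each). Among the genes named here are brakes on the cell cycle, Cdkn2c, Gmnn and E2f7, as well as genes that drive it. Without replicate 3, 4 or 8 none of the 18 calls in that direction was left, without replicate 1, 2 or 7 there were 10, 11 and 11, and the 10 that rose with tumour became 5, 3, 2 and 4 without replicate 1, 2, 3 or 4.

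In the 3 remaining comparisons none of the 67 passed. In tumour-free mice the smallest unadjusted p values with anti-IL-6R were those of Dck at 0.33 (limma adjusted p = 0.51) and Slbp at -0.49 (adjusted p = 0.53). Between hosts under anti-IL-6R they were those of Chtf18, of an alternative clamp loader, at -0.56 (adjusted p = 0.52) and Skp2, of a ubiquitin ligase, at -0.67 (adjusted p = 0.54). For the interaction they were those of Gmnn at -0.67 (adjusted p = 0.074) and Cdkn2c at -0.76 (adjusted p = 0.076).

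A list of 25 genes of mitosis, which act later in the cycle, was also chosen with earlier results of these data known, and all were measured. Of the 25, 10 rose with tumour with a median of 0.55 (4.26% of all genes tested rose). With anti-IL-6R in tumour-bearing mice 22 fell with a median of -0.85 (3.82% of all genes tested fell). How these counts depend on the settings is not given here. Mki67, the proliferation marker Ki-67, gave 0.77 and -0.94 and Cdk1, the mitotic kinase, 0.67 and -0.91 (limma adjusted p = 0.024 and 0.024 for Mki67, 0.038 and 0.025 for Cdk1).

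Cell type markers were compared in the same groups. By median, those of erythroid cells, neutrophils, plasma cells and T cells as a whole (pan T) were above 0 with tumour. The same lists were below 0 by median with anti-IL-6R in tumour-bearing mice. All 10 pan T cell markers, among them Cd3e and Cd4, were measured. Their median difference was 0.19 with tumour, where 9 of the 10 were above 0 and Cd5 rose. With anti-IL-6R in tumour-bearing mice it was -0.27, where all 10 were below 0 and none passed. Of 16 erythroid markers 15 were measured; 12 rose with tumour, with a median of 2.79, and 8 fell with anti-IL-6R in tumour-bearing mice, with a median of -1.79. Their signals, each divided by the 75th percentile of its array, summed to between 8.56 and 12.1 in tumour-free control, 34.9 and 72.5 in tumour-bearing control, 15.2 and 19.0 in tumour-free anti-IL-6R and 16.1 and 20.9 in tumour-bearing anti-IL-6R samples. In both tumour-free groups, Rhag and Epb42 were dim, that is, not well above background on any array, and so was Rhag in the tumour-bearing anti-IL-6R group. These genes were kept only because both tumour-bearing control arrays were well above background, the group where they are high. Their differences count in the medians of both comparisons but have no exact size, and Epb42 is among the 12 that rose. In tumour-free mice the erythroid markers had a median difference of 1.03 with anti-IL-6R, with 0 past the threshold, where the replication and S-phase genes had 0.06.

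Of 14 neutrophil markers 13 were measured; 6 rose with tumour, with a median of 1.98, and 6 fell with anti-IL-6R in tumour-bearing mice, with a median of -2.04. Their sums lay between 32.8 and 52.9 in tumour-free control, 120.2 and 128.1 in tumour-bearing control, 36.8 and 152.3 in tumour-free anti-IL-6R and 34.5 and 52.2 in tumour-bearing anti-IL-6R samples, and Prtn3 was not well above background in any group but tumour-bearing control, nor were Ctsg in either tumour-free group, Mpo in tumour-free anti-IL-6R and Ngp in tumour-bearing anti-IL-6R samples. The highest sum, 152.3, was that of replicate 6. S100a9 and S100a8 read 6.76 and 5.26 there, their highest values on the 8 arrays. The median deviation over the 13 neutrophil markers on replicate 6 was -0.12, against 1.52 and 1.48 on the tumour-bearing control arrays. On replicate 6 the median deviation of the replication and S-phase genes was -0.09. All 8 plasma cell markers were measured; 5 rose with tumour, with a median of 1.41, and 1 fell with anti-IL-6R, with a median of -0.56. Their sums were 24.4 to 25.2, 43.8 to 47.6, 23.5 to 28.1 and 32.3 to 34.5 in the same order of groups, and Sdc1 and Tnfrsf17 were not well above background in either tumour-free group. Sdc1 and Tnfrsf17, like the neutrophil genes Prtn3 and Ngp, were kept only because both tumour-bearing control arrays were well above background. Their differences count in the medians but have no exact size, and Ngp and Tnfrsf17 are among the genes that rose with tumour. The same limit holds with anti-IL-6R in tumour-bearing mice, where Ngp had the largest fall of the neutrophil markers.

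Markers of B cells and NK cells went the other way: 6 of 11 B cell markers fell with tumour and 4 rose with anti-IL-6R in tumour-bearing mice, with medians of -0.90 and 0.72, and 3 of 7 NK markers fell and 1 rose with tumour while 4 rose with anti-IL-6R, with medians of -0.69 and 0.56. Both CD8 T cell markers, the 7 measured of 8 macrophage and dendritic markers and the 3 measured of 5 endothelial markers passed in neither comparison. Cd8a and Cd8b1 were well above background on all 8 arrays. The part of such cells in the differences of the replication and S-phase genes was not tested.

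**Figure D4:**
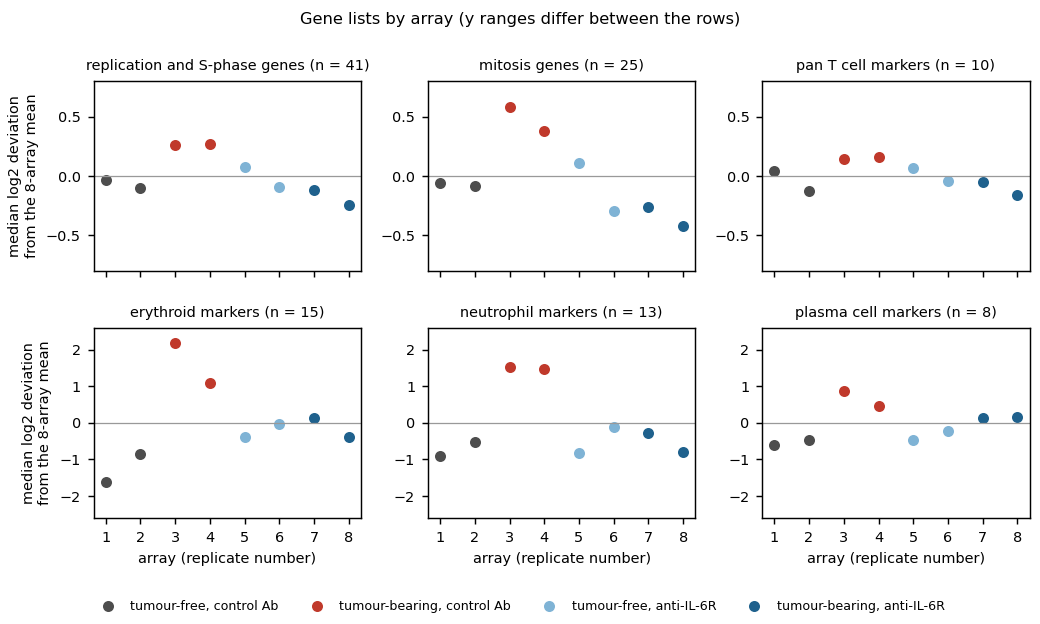
Median log2 deviation from the 8-array mean over 6 gene lists on each array, coloured by group; the n in each title is the number of genes measured, and the upper and lower rows have different y ranges. Replicates 3 and 4 are the highest points of all 6 panels, at 0.26 and 0.27 for the replication and S-phase genes, above 1 for the erythroid markers and 1.52 and 1.48 for the neutrophil markers.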

How the data were processed

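The 8 one-colour arrays, 2 per group, were read from deposited scanner files of intensity values. The submitters' processing notes name Agilent Feature Extraction 10.10.1.1 as the authors' software. Signals were, per the file headers, background-subtracted and detrended, with surrogate values for spots not above background. The deposited value table holds log2 values, which differed from the log2 processed signal by a near-constant shift on each array (r = 1). Whether that shift is the array's 75th percentile was not checked. The value table was used as an alternative. Outlier spots were dropped, spots of a probe averaged, and 32039 of 56587 probes, those called well above background in both samples of some group, kept. On each array 53.1% to 59.8% of probes were well above background and 0 spots were saturated; 2 arrays per group limit the precision. The brightest kept probe stood for a gene; 21 members had several. Names followed RefSeq by accession (32986 probes) or symbol (10740).

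Groups were compared with limma 3.58.1 (R 4.3.3), with 1 mean per group over all 8 arrays (degrees of freedom: 4 residual, 4.16 prior), the variance following the mean level; two-sided p-values were adjusted over 21519 genes by the Benjamini-Hochberg method at 0.05. The fit was tested on simulated data. Promoter motifs were searched in Python 3.11.15 with pandas 2.3.3 and numpy 2.4.6, and plots drawn with matplotlib 3.10.9.

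Members and all gene and marker lists were chosen with earlier results of these data known. All array values are given for the 12 members past the threshold in any comparison with the smallest unadjusted p in the tumour comparison under control antibody; from the 67 other genes, up to 6 per comparison by smallest p are named, and up to 2 where none passed; 1 gene that the rule names is not reported here. Alternatives were normexp background correction, quantile normalization, no filter on dim probes, no variance trend, array weights, the mean of kept probes, the value table, and leaving out each array.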

Additional observations from a re-analysis of the deposited data

How the results depend on the processing

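Counts of members past the threshold depended on the settings, while no member that had passed changed direction under any alternative. The sizes of the differences did vary, with tumour from 0.73 to 1.39 for Orc1. The 11 members that rose with tumour under control antibody became 7 with quantile normalization and 4 without the filter on dim probes, without the variance trend or with array weights, and 1 to 13 when an array was left out. The 23 that fell with anti-IL-6R in tumour-bearing mice became 0 without the filter, 2 without the trend and 0 to 22 when an array was left out; none of the 23, and 1 of the 11, passed without each of the 8 arrays in turn, in fits where the group of that array had no spread of its own. The interaction passed for 0 to 6 members when an array was left out. Among the 67 other genes, the 10 that rose with tumour became 4 without the trend, 6 with the mean of probes and 2 to 12 when an array was left out, the 1 that fell became 0 without the filter, without the trend and with the mean of probes and 0 to 2 when an array was left out, and the 18 that fell with anti-IL-6R in tumour-bearing mice became 0 without the filter or the trend, 11 with the mean of probes and 0 to 18 when an array was left out. When an array was left out, 0 to 1 of the 67 rose with anti-IL-6R in tumour-bearing mice, 0 to 1 rose with it in tumour-free mice, 0 to 1 fell between hosts under anti-IL-6R and 0 to 10 fell in the interaction. The cause of these changes was not tested.

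The median of the members under quantile normalization was -0.11 between hosts under anti-IL-6R and -0.38 for the interaction. When an array was left out, it ranged from -0.022 to 0.16 for anti-IL-6R in tumour-free mice and from -0.59 to -0.44 for the interaction. Values of members that had not passed changed sign as follows. With quantile normalization Cdt1 gave -0.043 with tumour and 0.069 with anti-IL-6R in tumour-bearing mice, Gins3 0.047 with anti-IL-6R, and Ung -0.051 with tumour. With normexp Cdt1 gave -0.0046 with tumour and Ung -0.023 with anti-IL-6R. With the mean of its probes Prim2 gave -0.092 with tumour and 0.19 with anti-IL-6R. When an array was left out, tumour differences ranged from -0.13 to 0.29 for Cdk2, from -0.011 to 0.070 for Cdt1, from -0.16 to 0.099 for Gins3, from -0.49 to 0.003 for Pola2, from -0.032 to 0.15 for Pold1, from -0.038 to 0.045 for Rpa2 and from -0.0018 to 0.048 for Ung. Likewise, anti-IL-6R differences in tumour-bearing mice ranged from -0.32 to 0.10 for Cdk2, from -0.10 to 0.022 for Cdt1, from -0.19 to 0.072 for Gins3 and from -0.056 to 0.082 for Ung.

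No paired analysis was possible because the labels do not say which arrays share an experiment, although the design text gives 2 experiments per condition; each replicate number is used once. Low signal over background limited Ccne2, which was not tested, and the 2 dimmer probes of Orc1.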
